A study of Mus musculus with 43 samples.

Results

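Within 8 h of retinoic acid (RA), 189 protein-coding genes were lower in wild-type (WT) mouse spermatogonial cultures, among them Nanos2, Nanos3, Id4, Tcl1 and the Egr transcription factors. Most genes of undifferentiated spermatogonia were not among them. Of 44 tested, 7 were members, a larger share than the 1.61% of all eligible protein-coding genes. The median difference of the 44 at 8 h was -0.16, against 0.00 over all genes tested. Gfra1 and Sall4 of that list went the other way at 8 h, with 0.30 and 0.73. Members were all protein-coding genes with a mean of at least 6 on the deposited log2 scale in WT DMSO cultures at 8 h, a mean RA minus DMSO difference of -0.6 or lower at 8 h, and a difference below 0 in all 3 WT lines. Of 46983 genes in the table, 11736 were protein-coding and reached that level, and 189 of them (1.61%) met the rule. The 8 h values of WT libraries therefore chose the genes, and those values are given as a description, without a test.

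The study grew THY1+ germ cells from mouse testes on STO feeder cells, a fibroblast line, with GDNF at 20 ng/ml, GFRA1 at 150 ng/ml and FGF2 at 1 ng/ml, between passages 3 and 12. Cultures came from Stra8-knockout (KO) mice, with lines KO12, KO20 and KO21, and from WT mice, with lines WT17, WT23 and WT25. Each genotype was sampled untreated at 0 h and after 4, 8 and 24 h with RA or with its solvent DMSO (0.01%), which gave 14 groups of 3 libraries, 42 in all. For RA the labels give 0.01 M, without saying whether this is a stock or the concentration in the dish. All groups, controls included, share the feeder cells and the growth factors. Age of the donor mice is not given in the labels, and nothing says whether the lines came from separate animals, so p-values measure the spread between these lines.

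RA, the active form of vitamin A, binds nuclear receptors and starts the differentiation of spermatogonia. Undifferentiated spermatogonia are maintained by GDNF from Sertoli cells, which acts through the receptors GFRA1 and RET and through RAS and ERK kinases. NANOS2, an RNA-binding protein, keeps these cells undifferentiated. Stra8 encodes a transcription factor that RA induces and that germ cells need for meiosis.

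Stra8, the targeted gene, averaged 9.65 ± 0.16 in KO RA cultures and 14.50 ± 0.35 in WT RA cultures at 24 h (log2, SD, n = 3 each), and in DMSO cultures at 24 h it averaged 6.57 ± 0.19 in KO and 7.68 ± 0.19 in WT. Its level was lower in KO in both, though not absent, and the labels do not say which part of the gene is deleted. Kit, the receptor of differentiating spermatogonia, averaged 12.88 ± 0.13 in WT RA cultures and 9.26 ± 0.27 in WT DMSO cultures at 24 h (SD, n = 3 each), while Gfra1 averaged 12.32 ± 0.07 and 13.11 ± 0.06 in these groups. In KO at 24 h, Kit averaged 12.92 ± 0.10 with RA and 9.23 ± 0.32 with DMSO. Gfra1 averaged 13.54 ± 0.09 and 13.22 ± 0.09 there, higher with RA. At 4 h, 3 DMSO libraries stood apart from their groups, those of WT23, WT25 and KO20. The authors' column headers mark WT25 with "outl" and state that KO20 tracks with the KO RA libraries of 24 h. Kit was 12.96 in the library labelled KO20 DMSO at 4 h, close to the mean of 12.92 in KO RA at 24 h, against 9.39 in KO12 and 9.15 in KO21. In the library labelled WT23 DMSO at 4 h Kit was 11.13 and Stra8 11.59, against 9.11 and 7.93 in WT17 DMSO. In that of WT25 they were 8.52 and 8.12. Comparisons with DMSO at 4 h therefore rest in part on controls in doubt. Kit in KO20, and Kit and Stra8 in WT23, go against the DMSO label. WT25 is in doubt by its header, not by these 2 genes. These libraries enter the shared estimate of spread, and counts without them are given where they differ by more than 1.5 times. Depth per library cannot be read from the deposited values.

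At 8 h the median difference over the 189 genes was -0.74 in WT, a 1.67-fold lower level, and 26 genes differed by -1 or lower. Abhd12b, a predicted lipid hydrolase, had the largest difference with -1.57, followed by Nanos2 with -1.42 and Tmem178b with -1.28. The median difference was -0.63 in line WT17, -0.88 in WT23 and -0.80 in WT25. Just inside the threshold lay Adrbk2, BC067074 and B4gat1, at -0.6003, -0.6005 and -0.6006. Just outside lay Pabpc4l at -0.5989, Foxa2 at -0.5968 and Nefl at -0.5967. Osmr passed the threshold with -0.62 but was 0.01 above its DMSO value in WT23, and was not taken. Expression of the members in WT DMSO cultures at 8 h ran between 6.01 and 13.74 on the log2 scale with a median of 8.12, against 9.90 for all 11736 eligible genes. Per kilobase of transcript, the authors' deposited mean signal had a median of 61.8 scaled counts over the members. Nefm, with 2107 per kilobase, Egr1, with 1482, and Tcl1, with 1371, were the most abundant, and Ryr2, with 4.06, was the least.

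At 24 h the RA and DMSO libraries had no part in the choice of genes, so this time point tests whether the difference was still there. In WT, 164 of the 189 genes fell at 24 h (86.8%) and none rose, while of all 16297 genes tested 12.4% fell and 11.8% rose (limma, adjusted p under 0.05; at an unadjusted p under 0.05 also 0 of the 189 were higher). The difference lay below 0 in all 3 WT lines for 182 genes, compared with 32.7% of all genes tested. The median difference was -1.08 at 24 h, a 2.12-fold lower level, with medians of -1.01 in WT17, -1.13 in WT23 and -1.06 in WT25. Over all genes tested the median was 0.00. For 149 of the genes the difference was lower at 24 h than at 8 h, and for 73 it was at least 1.5 times as large. Nanos2 fell by 2.69, Esr2 by 2.21, Tmem178b by 2.15, Cd7 by 2.14 and Nefm by 1.99 on the log2 scale at 24 h. Krt24 fell by 1.97, Sall3 by 1.94, Fign by 1.93, Foxc2 by 1.91 and Egr2 by 1.90. These 10 had adjusted p-values of 2.3e-07 or lower, except Tmem178b with 1.6e-06. Foxc2, a forkhead transcription factor, had differed by only -0.63 at 8 h.

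The 8 h differences chose the genes and are enlarged by that choice, so a smaller difference at 24 h in some of them would follow from the choice alone. At 24 h, 14 genes had a difference no more than 0.5 times that at 8 h, and 4 lay above 0 in WT. Sox3, an X-linked transcription factor of early spermatogonia, had 8.29, 8.22 and 8.12 in WT RA cultures and 8.93, 9.05 and 8.91 in WT DMSO cultures at 8 h. By 24 h it had 9.92, 9.36 and 9.95 with RA and 9.78, 9.70 and 9.69 with DMSO. The 24 h groups overlapped, and the difference there was 0.02 ± 0.19 (SE, n = 3; adjusted p = 0.96). Gal, the neuropeptide galanin, differed by 0.56 ± 0.41 at 24 h (adjusted p = 0.35; 0.038 with spread from the compared groups only), Daam2, a formin of Wnt signalling, by 0.21 ± 0.18, and Cyp2s1, a cytochrome P450, by 0.14 ± 0.23, and none of these passed the test. Zfp750, a zinc finger factor with a difference of -1.11 at 8 h, did not pass at 24 h either, with -0.31 ± 0.37 (adjusted p = 0.60).

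**Figure D1:**
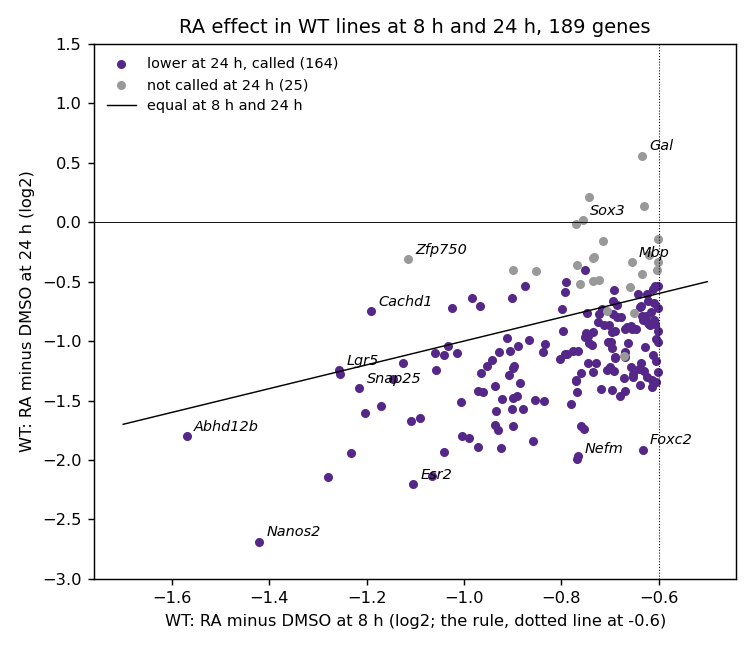
RA minus DMSO (log2) in WT lines at 8 h, the contrast of the rule, on the horizontal axis and at 24 h on the vertical axis; each point is 1 of the 189 genes, purple where the fall at 24 h passed the test. Most points, 149 of 189, lie below the line of equal differences, with Nanos2 lowest at -2.69, and 4 lie above 0.

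In KO cultures the same genes moved less. At 24 h, 47 of the 189 fell (24.9%) and 6 rose (3.17%), against 2.47% and 6.36% of all genes tested. The median difference was -0.31 in KO and -1.08 in WT, and the KO medians of -0.28, -0.31 and -0.31 in lines KO12, KO20 and KO21 lay close together. At 8 h, 25 genes fell in KO (13.2%; background 0.313%) with a median difference of -0.36, and none rose (background 2.9%; limma; 1 was higher at an unadjusted p under 0.05). In KO the difference lay below 0 in all 3 lines for 161 genes at 8 h and for 121 at 24 h, against 28.4% and 34.7% of all genes tested. These KO counts depended on the fit. A fit that blocked on culture line called 59 genes lower at 8 h and 76 at 24 h. Without the 3 DMSO libraries at 4 h that stood apart, 57 fell at 8 h. Leaving out line KO21 gave 5 at 8 h and 15 at 24 h, and leaving out KO12 gave 9 and 21. Feeder fibroblast markers moved with the KO comparison at 24 h. None is among the 189 genes and 2 of 23 fell, their median difference was -0.37, and their summed linear level lay between 46375 and 52182 in KO RA libraries and between 59835 and 79496 in KO DMSO libraries, without overlap. In WT at 24 h these sums lay between 42370 and 64903 with RA and between 46954 and 72189 with DMSO. Their part in the result was not tested. In the authors' deposited table, 170 of the genes were lower in WT at 24 h (background 16.1% of genes with an adjusted p), 59 in KO at 8 h (1.37%) and 68 in KO at 24 h (7.86%). The authors' deposited table also had 133 with an adjusted p under 0.05 for the difference between genotypes and the sign of a higher effect in KO (12.4%).

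The share of the WT fall kept in KO was computed as the KO difference divided by the WT difference at 24 h, for the 164 genes whose WT fall passed. Its median was 29.7%, with quartiles of 2.2% and 48.1%. In 39 of the 164 genes KO kept 50% or more of the fall, in 86 between 0 and 50%, and in 39 the KO difference had the opposite sign. These are estimates without a test, and only 6 of all 189 genes were called higher in KO at 24 h. Taking only genes whose WT fall passed favours a large WT difference, the divisor of this share. Over all 189 genes, the median KO difference was 29.0% of the median WT difference at 24 h. At 8 h this ratio of medians was 49.4%, a description only, since the WT differences of 8 h chose the genes and are enlarged by the choice. Between 8 h and 24 h no gene showed a further fall or rise of the KO difference (limma, adjusted p; at an unadjusted p under 0.05, 1 was lower and 13 higher). Over all genes tested 0.00614% were lower and 0.0% higher, so the count is that of the background.

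The difference between genotypes was tested directly at 24 h. For 95 of the 189 genes (50.3%) the RA effect was higher in KO, that is less negative or positive, and for none was it lower, against 5.88% and 2.56% of all genes tested. At an unadjusted p under 0.05 it was higher for 124 and lower for 0. The median difference of the effects, KO minus WT, was 0.74, and it was above 0 for 174 genes. Of the 95, 21 still fell in KO, 68 passed in neither direction in KO and 6 rose in KO. Another 26 genes fell in KO with no called difference between the genotypes. Since the genes were chosen on WT values alone, the choice favours genes with a larger effect in WT. The same rule applied to KO cultures took 22 genes of 11720 that were eligible. Of these, 20 were among the 189, which is 90.9% of the KO list and 10.6% of the WT list. The remaining genes of the KO list, Hmgn5 and Fmn2, differed by -0.53 and -0.45 in WT at 8 h.

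**Figure D2:**
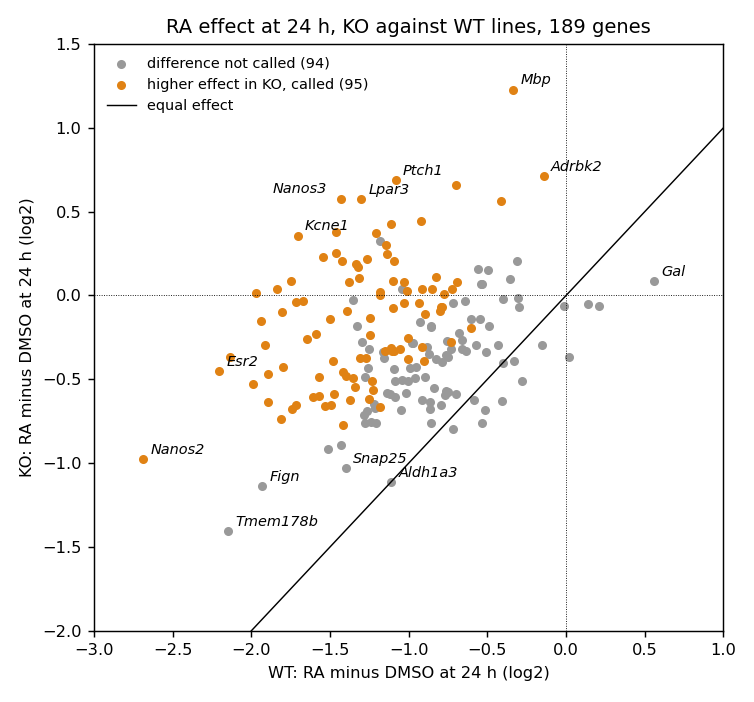
RA minus DMSO at 24 h (log2) in WT lines on the horizontal axis and in KO lines on the vertical axis for the 189 genes; orange points passed the test of the difference between genotypes. The 95 orange points all lie above the line of equal effect, and Tmem178b, Fign, Snap25 and Aldh1a3 are named among the genes that were low in both genotypes.

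The 6 genes that rose in KO at 24 h were Mbp, Adrbk2, Ptch1, Nanos3, Lpar3 and Kcna6, of which Mbp and Kcna6 are named after their values were seen. Ptch1, the hedgehog receptor, had 9.24, 9.78 and 9.53 in KO RA cultures and 8.78, 8.93 and 8.79 in KO DMSO cultures at 24 h. In WT it had 7.79, 7.84 and 7.87 with RA and 8.74, 8.96 and 9.05 with DMSO. The groups did not overlap in either genotype, and they moved in opposite directions, with 0.69 ± 0.20 in KO (SE, n = 3; adjusted p = 0.025) and -1.08 ± 0.20 in WT (adjusted p = 0.00013). Lpar3, a receptor for lysophosphatidic acid, had 9.85, 9.87 and 9.79 in KO RA cultures and 9.30, 9.21 and 9.27 in KO DMSO cultures at 24 h. In WT, Lpar3 had 7.97, 8.05 and 8.13 with RA and 9.44, 9.27 and 9.35 with DMSO. The RA effect on Lpar3 was 1.88 ± 0.16 higher in KO than in WT (adjusted p = 2.9e-09). Mbp, the myelin basic protein gene, rose by 1.23 ± 0.20 in KO (adjusted p = 6.6e-05), and its difference of -0.34 in WT did not pass. The rise of Ptch1 did not pass without KO12 (adjusted p = 0.07), KO21 (0.18) or WT23 (0.053), and that of Nanos3 did not pass without KO12 (0.25), KO20 (0.17) or KO21 (0.094).

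**Figure D3:**
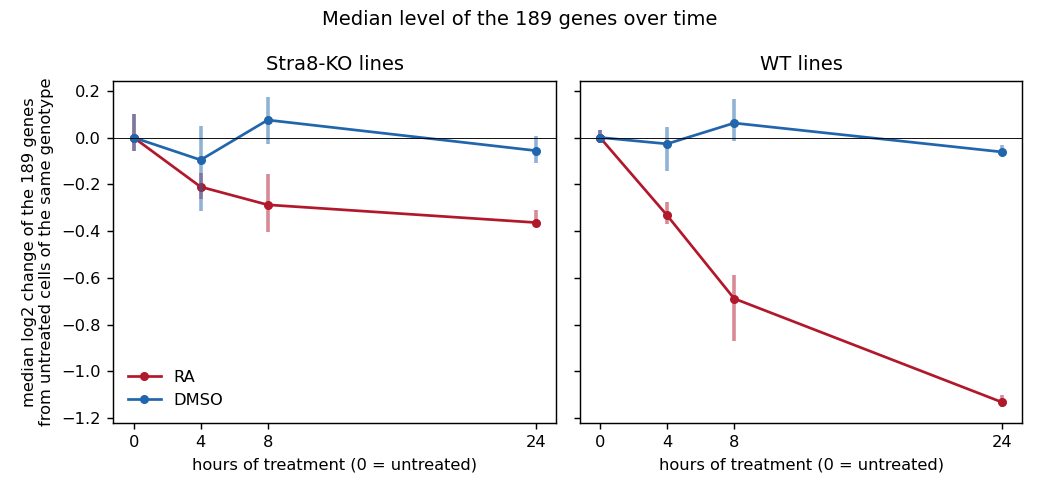
Median over the 189 genes of the log2 change from the untreated group of the same genotype, by hours of treatment, with KO lines on the left and WT lines on the right; vertical bars span the lowest and highest of 3 libraries. With RA the median reached -0.36 in KO and -1.13 in WT at 24 h, while DMSO groups stayed between -0.10 and 0.07 at all times.

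The onset was examined at 4 h against both controls. Against WT DMSO at 4 h, 16 genes were lower in WT RA cultures (8.47%; background 0.663%) and none was higher (background 2.34%; limma; 1 at an unadjusted p under 0.05), and the group's DMSO arm holds 2 of the libraries that stood apart. Against untreated WT cultures at 0 h, 52 fell (27.5%; background 5.71%) and none rose (background 5.3%; limma; 2 at an unadjusted p under 0.05). The median difference was -0.30 against DMSO and -0.33 against untreated cultures. Comparisons with untreated cultures also hold handling and time. Summed feeder fibroblast markers lay between 33802 and 39965 in WT RA and 28912 and 38838 in WT DMSO at 4 h. In untreated WT cultures they lay between 56541 and 60632. KO sums lay between 32687 and 47728 with RA at 4 h and between 42991 and 72380 untreated, which overlap. Their part was not tested. Blocking on line gave 53 against DMSO and 84 against untreated cultures. Spread taken from the compared groups only gave 0 and 81. Without WT25 the count against DMSO was 3, and without WT17 that against untreated cultures was 29. In KO, Cish, an inhibitor of cytokine signalling, was the only gene lower against DMSO at 4 h (0.529%; background 0.00614%), with -0.51 ± 0.10 (adjusted p = 0.0084), and none was higher (background 0.454%; limma; 1 at an unadjusted p under 0.05). Without the 3 libraries that stood apart 11 were lower, blocking on line gave 5, and without KO20 there were 4, without WT25 2 and without KO21 0. Compared with untreated KO cultures, 32 fell (16.9%; background 3.57%) and 3 rose (1.59%; background 4.81%). The count of 32 became 62 when line was blocked, 52 with those 3 libraries left out, 49 with spread from the compared groups only, 21 without KO12, 16 without KO20 and 13 without KO21.

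Esr2, oestrogen receptor beta, fell by 1.32 ± 0.17 in WT at 4 h of RA against untreated cultures (adjusted p = 4.2e-06). In KO it fell by 1.14 ± 0.17 in the same comparison (adjusted p = 3.6e-05). Fbxo32, an F-box protein of muscle atrophy and a FoxO target, fell by 0.81 ± 0.14 in WT and by 0.53 ± 0.14 in KO against untreated cultures, and in WT it also fell by 0.63 ± 0.14 against DMSO. Nanos2 fell by 0.90 ± 0.19 against untreated WT cultures (adjusted p = 0.0017), and its difference of -0.52 ± 0.19 against WT DMSO did not pass (adjusted p = 0.10). Nanos3 rose in KO at 4 h against untreated cultures by 0.51 ± 0.16 (adjusted p = 0.046), as did Egr3 by 1.23 ± 0.35 and P2rx7, an ATP-gated channel, by 1.22 ± 0.26. Against KO DMSO at 4 h these 3 genes differed by 0.11, 0.69 and -0.10, and none passed.

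Without RA, KO was compared with WT in untreated cultures, and DMSO at 24 h with untreated cultures in each genotype. None of the 16297 genes tested was called there, so these comparisons say nothing particular to the 189. DMSO at 4 h or 8 h was not tested against untreated cultures, nor KO against WT within DMSO. Between KO and WT untreated cultures no gene differed (0 of 189, background 0.0% in each direction; limma), and at an unadjusted p under 0.05, 3 were lower and 4 higher. Between WT DMSO at 24 h and untreated WT cultures no gene differed either (background 0.0%), with 2 lower and 6 higher at an unadjusted p under 0.05. Blocking on line called Ndrg1, a growth and stress response gene named after its value was seen, in this WT comparison. In KO, DMSO at 24 h against untreated cultures gave 0 as well (background 0.0%), with 4 lower and 4 higher at an unadjusted p under 0.05.

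Germ cell regulators made up 10 of the 189 genes, placed there, like the other role groups, from textbook knowledge after the members were known. Over all 189 genes, 86.8% fell in WT and 24.9% in KO at 24 h, and 50.3% had a higher effect in KO. Over all genes tested these shares were 12.4%, 2.47% and 5.88%. Counts in this and the following role groups stand beside these shares, and no role group was tested against the other members. In WT at 24 h 9 of the 10 fell, with a median of -1.14, and Sox3 did not pass. In KO, Nanos2 and Tcl1 fell and Nanos3 rose, and the RA effect was higher in KO for 7. Nanos2, on chromosome 7 from 18987400 to 18988962 on the plus strand (GRCm38), had 7.49, 6.53 and 6.79 in WT RA cultures and 8.50, 8.16 and 8.41 in WT DMSO cultures at 8 h. At 24 h it had 6.09, 5.79 and 5.77 with RA and 8.64, 8.56 and 8.51 with DMSO in WT. In KO at 24 h it had 7.29, 7.50 and 7.50 with RA and 8.12, 8.77 and 8.31 with DMSO. At 24 h every RA library lay below every DMSO library in both genotypes, and the WT RA libraries were the lowest. Nanos2 fell by 0.97 ± 0.19 in KO (adjusted p = 0.00061) and by 2.69 ± 0.19 in WT, so KO kept 36.3% of the fall, and the effects differed by 1.71 ± 0.27 (adjusted p = 6.9e-05). Its promoter is shown because Nanos2 was on a planned list of genes for display. The window of 300 bases around the start is chr7:18987274-18987573 on the plus strand (RefSeq, GRCm38.p6), with the single AGGTCA match, on the minus strand, in capitals.
Nanos2: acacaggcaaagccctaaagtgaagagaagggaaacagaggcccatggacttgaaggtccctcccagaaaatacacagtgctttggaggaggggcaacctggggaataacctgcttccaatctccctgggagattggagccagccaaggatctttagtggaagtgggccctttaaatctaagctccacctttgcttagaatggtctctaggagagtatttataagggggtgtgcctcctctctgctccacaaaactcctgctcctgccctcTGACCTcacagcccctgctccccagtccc

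Nanos3, a related RNA-binding protein, had 8.06, 8.14 and 8.03 in KO RA cultures and 7.32, 7.53 and 7.65 in KO DMSO cultures at 24 h. WT cultures had 6.25, 6.32 and 6.33 with RA and 7.61, 7.88 and 7.71 with DMSO. RA libraries were the higher ones in KO and the lower ones in WT, with no overlap in either. The effects on Nanos3 differed by 2.01 ± 0.23 (adjusted p = 4.6e-07), the second largest difference among the members after Kcne1. Tcl1, an activator of the kinase AKT, had 9.67, 9.67 and 9.67 in WT RA cultures and 11.43, 11.34 and 11.40 in WT DMSO cultures at 24 h. Its fall was 0.65 ± 0.15 in KO (adjusted p = 0.0038; 0.056 without KO21) and 1.71 ± 0.15 in WT (adjusted p = 3.4e-10). Id4, an inhibitor of bHLH factors that marks spermatogonial stem cells, had 7.41, 7.52 and 7.45 in WT RA cultures and 8.47, 8.74 and 8.45 in WT DMSO cultures at 24 h. In KO it had 8.35, 8.79 and 9.33 with RA and 8.14, 8.59 and 9.13 with DMSO. These groups overlap, while within lines RA minus DMSO was 0.210 in KO12, 0.197 in KO20 and 0.207 in KO21. The difference between the effects on Id4 was 1.30 ± 0.35 (adjusted p = 0.017), and it did not pass without KO20 (0.052), WT17 (0.082), WT23 (0.096) or WT25 (0.051).

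Sall3, a zinc finger factor, fell by 1.94 ± 0.22 in WT at 24 h and differed by -0.15 ± 0.22 in KO, and its RA effect was 1.79 ± 0.31 higher in KO (adjusted p = 0.00025). Sall1, of the same family, fell by 1.04 ± 0.29 in WT (adjusted p = 0.0088; 0.066 without WT23). Dmrtb1, which controls the switch of spermatogonia between mitosis and meiosis, fell by 1.19 ± 0.15 in WT (adjusted p = 2.9e-07), and its effect was 1.20 ± 0.21 higher in KO (adjusted p = 0.00025). Spocd1, a factor of piRNA-directed DNA methylation, fell by 0.97 ± 0.16 in WT. Neurog3, a bHLH factor on the list of undifferentiated spermatogonia, completes the group.

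**Figure D4:**
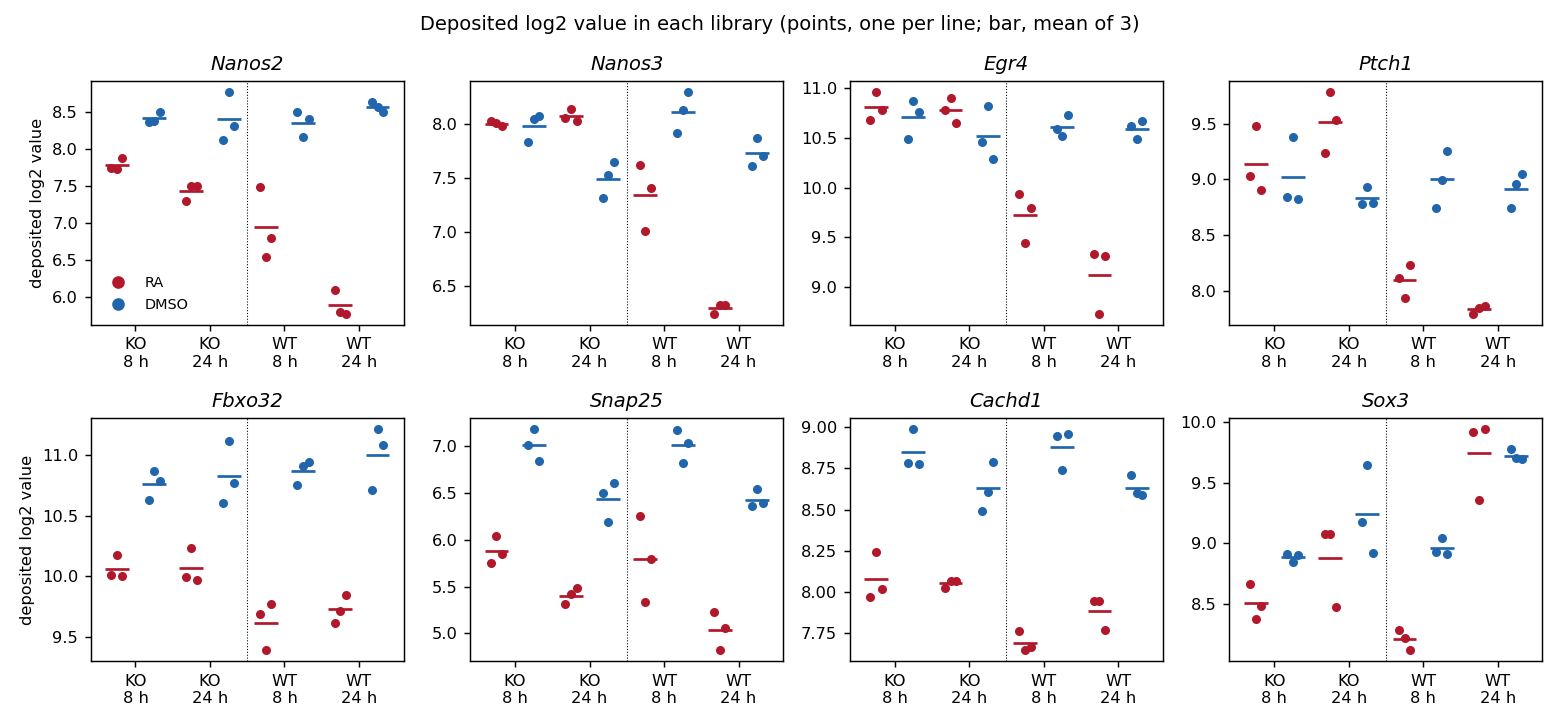
Deposited log2 value of 8 members in each library, points for lines and bars for the mean of 3, with RA in red left of DMSO in blue, and KO left of WT. Nanos2, Fbxo32, Snap25 and Cachd1 lie lower with RA in both genotypes, Nanos3, Egr4 and Ptch1 lie lower with RA in WT and not in KO at 24 h, and Sox3 lies lower at 8 h with RA and not at 24 h in WT.

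Genes of the growth factor response and of kinase signalling numbered 19. In WT at 24 h, 16 fell with a median of -1.14; in KO 5 fell and 1, Adrbk2, rose, with a median of -0.38. Egr2, an early growth response factor on chromosome 10 from 67535475 to 67542188, plus strand, had 9.80, 9.67 and 9.75 in WT RA cultures and 11.57, 11.77 and 11.57 in WT DMSO cultures at 24 h. In KO, Egr2 had 10.79, 10.88 and 11.32 with RA and 11.45, 11.54 and 11.90 with DMSO. The KO groups did not overlap, and the difference of -0.63 ± 0.21 did not pass (adjusted p = 0.053). It passed when line was blocked (0.017), without the 3 libraries that stood apart (0.0026) and without KO20 (0.048). The effects on Egr2 differed by 1.26 ± 0.30 (adjusted p = 0.0056). Egr4, a target of GDNF, had 10.78, 10.90 and 10.65 in KO RA cultures and 10.45, 10.82 and 10.29 in KO DMSO cultures at 24 h. In WT, Egr4 had 9.33, 8.74 and 9.31 with RA and 10.62, 10.49 and 10.66 with DMSO. Groups overlapped in KO and not in WT, with KO differences within lines of 0.323, 0.080 and 0.363, and the effects differed by 1.72 ± 0.25 (adjusted p = 3.4e-05). Egr3 fell by 1.25 ± 0.35 in WT (adjusted p = 0.0073; 0.11 without WT23). Egr1, whose values are given after they were seen, fell by 0.69 ± 0.18 in KO (adjusted p = 0.012) and by 1.26 ± 0.18 in WT. The difference between the effects on Egr1, 0.58 ± 0.26, did not pass (adjusted p = 0.17).

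Mycn, a MYC family factor that supports spermatogonial proliferation, had 10.86, 10.90 and 10.78 in KO RA cultures and 10.54, 10.75 and 10.50 in KO DMSO cultures at 24 h. The WT values were 9.49, 9.13 and 9.59 with RA and 10.57, 10.46 and 10.60 with DMSO. RA libraries were the higher ones in KO and the lower ones in WT, without overlap. The KO difference of 0.25 ± 0.13 did not pass (adjusted p = 0.26; 0.035 when line was blocked, 0.044 with spread from the compared groups), whereas WT fell by 1.14 ± 0.13 (adjusted p = 3.3e-08). The effects on Mycn differed by 1.38 ± 0.18 (adjusted p = 3.8e-06). Phlda1, induced by ERK signalling, fell by 0.71 ± 0.21 in KO (adjusted p = 0.031; 0.10 without KO12, 0.24 without KO21 and 0.055 without WT17) and by 1.29 ± 0.21 in WT. The difference between the effects on Phlda1, 0.57 with a 95% interval of -0.04 to 1.19, did not pass. Cish fell by 0.40 ± 0.10 in WT at 24 h (adjusted p = 0.0037; 0.10 without WT23), less than its difference of -0.75 at 8 h.
The promoters of Egr2, Egr4 and Mycn are shown because these genes were on the same planned list as Nanos2. The Egr2 window is chr10:67535249-67535548 on the plus strand, the first of 5 in the table, of which the others hold 1, 0, 0 and 0 GC boxes and no CACGTG. The Egr4 window is chr6:85513540-85513839 on the minus strand and holds none of the motifs searched, and the Mycn window is chr12:12941787-12942086 on the minus strand (RefSeq, GRCm38.p6). Capitals mark GGGCGG on either strand and, in Egr2, 1 CACGTG that overlaps it.
Egr2: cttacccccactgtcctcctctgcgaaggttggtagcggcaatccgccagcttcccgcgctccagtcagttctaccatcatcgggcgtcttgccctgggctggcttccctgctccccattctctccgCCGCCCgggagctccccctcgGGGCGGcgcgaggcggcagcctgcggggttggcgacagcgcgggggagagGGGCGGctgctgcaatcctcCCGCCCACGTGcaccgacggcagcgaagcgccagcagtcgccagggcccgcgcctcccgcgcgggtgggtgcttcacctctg
Egr4: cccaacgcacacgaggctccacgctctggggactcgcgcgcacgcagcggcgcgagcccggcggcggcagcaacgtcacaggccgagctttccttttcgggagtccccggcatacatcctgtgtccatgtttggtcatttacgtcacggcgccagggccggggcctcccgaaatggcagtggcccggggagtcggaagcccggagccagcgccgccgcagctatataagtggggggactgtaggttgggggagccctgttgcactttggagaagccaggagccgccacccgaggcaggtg
Mycn: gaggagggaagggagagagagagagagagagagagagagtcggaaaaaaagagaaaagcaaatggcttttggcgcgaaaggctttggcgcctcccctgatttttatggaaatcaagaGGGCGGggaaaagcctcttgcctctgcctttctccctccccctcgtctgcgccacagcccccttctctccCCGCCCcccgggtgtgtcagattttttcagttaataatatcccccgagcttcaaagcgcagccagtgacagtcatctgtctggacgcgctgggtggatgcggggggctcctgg

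Other transcription and chromatin factors formed a group of 27, of which 22 fell in WT at 24 h, with a median of -1.16, and 5 fell in KO, with a median of -0.28. For 15 the RA effect was higher in KO. Esr2 had 6.69, 6.98 and 6.37 in KO RA cultures and 6.89, 7.46 and 7.05 in KO DMSO cultures at 24 h. In WT it had 5.50, 5.10 and 5.45 with RA and 7.62, 7.40 and 7.64 with DMSO. Only the WT groups were apart, with KO differences within lines of -0.199, -0.474 and -0.685, and the effects differed by 1.75 ± 0.25 (adjusted p = 1.5e-05). At 8 h Esr2 had fallen in KO by 0.66 ± 0.17 (adjusted p = 0.022; 0.29 without KO12 and 0.37 without KO21). Foxc2 fell by 1.91 ± 0.15 in WT at 24 h, with an effect 1.62 ± 0.22 higher in KO (adjusted p = 6.9e-06). Tshz2, a zinc finger homeobox factor, fell by 0.60 ± 0.19 in KO (adjusted p = 0.038; 0.058 with no filter on low values, 0.059 without KO12, 0.4 without KO20, 0.24 without KO21 and 0.054 without WT23) and by 1.60 ± 0.19 in WT. Tcf7l2, a transcription factor of the Wnt pathway, fell by 1.01 ± 0.12 in WT (adjusted p = 1e-07). Tet1, which oxidises methylated cytosine, fell by 1.18 ± 0.36 in WT (adjusted p = 0.015; 0.12 without WT17, 0.065 without WT23 and 0.096 without WT25).

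**Figure D5:**
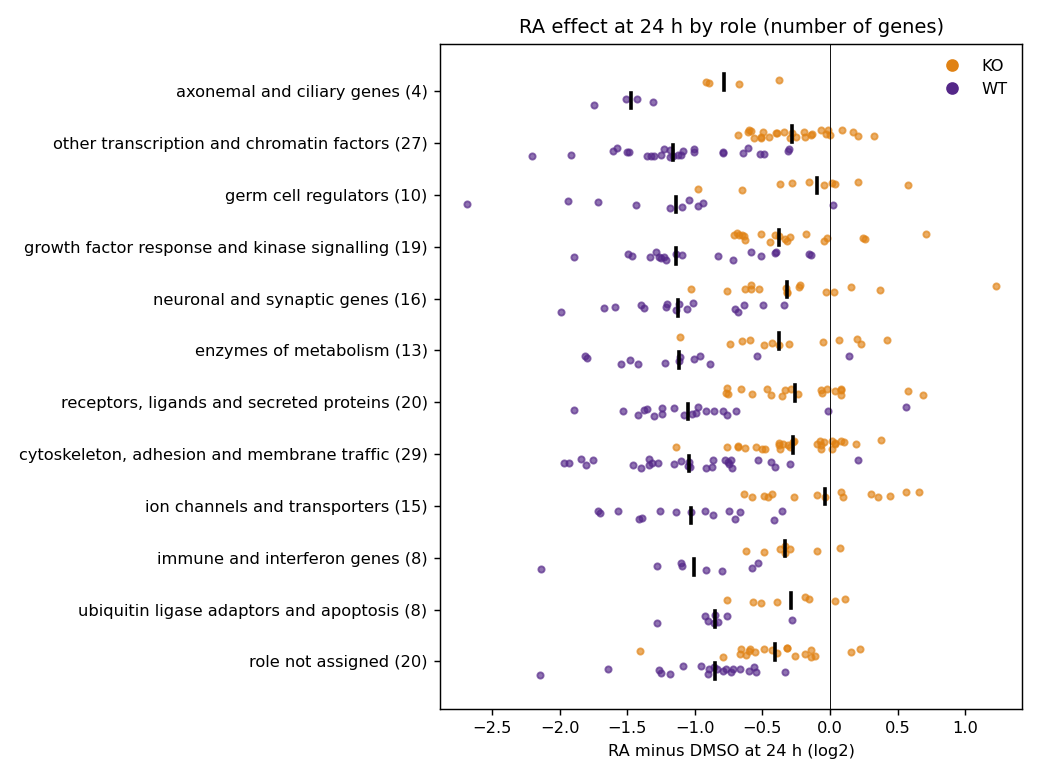
RA minus DMSO at 24 h (log2) for each of the 189 genes by role, orange for KO above purple for WT, with black ticks at the medians. Medians lie between -0.78 and -0.04 in KO and between -1.47 and -0.85 in WT, and in every role group the WT median is the lower one.

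Receptors, ligands and secreted proteins counted 20, with 17 lower in WT at 24 h (median -1.05), and 7 lower and 2 higher in KO (median -0.26). Lgr5, the receptor for R-spondins that strengthens Wnt signalling, had 4.89, 4.66 and 4.99 in KO RA cultures and 5.83, 5.21 and 5.77 in KO DMSO cultures at 24 h. In WT, Lgr5 had 4.64, 4.26 and 4.40 with RA and 5.73, 5.87 and 5.43 with DMSO. The RA libraries were lower in both genotypes without overlap, by 0.76 ± 0.20 in KO (adjusted p = 0.01; 0.16 without KO12 and 0.097 without KO21) and by 1.24 ± 0.20 in WT. The difference between these effects was 0.49, with a 95% interval of -0.08 to 1.05. Fst, follistatin, which binds activins, fell by 0.98 ± 0.28 in WT (adjusted p = 0.0091; 0.061 without WT17 and 0.083 without WT25).

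Among 16 neuronal and synaptic genes 14 fell in WT at 24 h (median -1.12), and 5 fell and 1 rose in KO (median -0.32). Snap25, a SNARE protein of vesicle fusion, had 5.31, 5.42 and 5.48 in KO RA cultures and 6.50, 6.19 and 6.61 in KO DMSO cultures at 24 h. The WT libraries had 5.22, 4.82 and 5.05 with RA and 6.36, 6.54 and 6.39 with DMSO. RA libraries were below all DMSO libraries in both genotypes, by 1.03 ± 0.32 in KO (adjusted p = 0.034) and by 1.40 ± 0.32 in WT (adjusted p = 0.0012). The KO call of Snap25 at 24 h was lost with no filter on low values (0.052) and without KO12 (0.23), KO21 (0.14), WT17 (0.064), WT23 (0.057) or WT25 (0.068). The effects on Snap25 differed by 0.37, with a 95% interval of -0.54 to 1.28, and KO kept 73.7% of the WT fall. Nefm, the medium neurofilament, which overlaps Nefl on the opposite strand, fell by 1.99 ± 0.19 in WT and differed by -0.53 ± 0.19 in KO (adjusted p = 0.076; 0.036 when line was blocked, 0.0011 with the 3 DMSO libraries left out, 0.046 with spread from the compared groups and 0.024 without KO20). Enc1, an actin-binding protein of neurons, fell by 1.67 ± 0.14 in WT with an effect 1.64 ± 0.20 higher in KO (adjusted p = 1.1e-06).

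In the group of 15 ion channels and transporters, 13 fell in WT at 24 h (median -1.03), and 2 fell and 1 rose in KO (median -0.04). The RA effect was higher in KO for 10 of them. Kcne1, a potassium channel subunit, had the largest difference between genotypes of all 189 genes. It had 7.47, 7.83 and 7.45 in KO RA cultures and 7.12, 7.75 and 6.80 in KO DMSO cultures at 24 h. In WT it had 5.45, 5.36 and 5.53 with RA and 7.08, 7.003 and 7.37 with DMSO. Only the WT groups were apart, with KO differences within lines of 0.348, 0.079 and 0.642, and the effects differed by 2.06 ± 0.41 (adjusted p = 0.001). Cachd1, an auxiliary protein of calcium channels, had 8.02, 8.07 and 8.06 in KO RA cultures and 8.49, 8.61 and 8.79 in KO DMSO cultures at 24 h. Its WT values were 7.95, 7.94 and 7.77 with RA and 8.71, 8.60 and 8.59 with DMSO. Its fall of 0.58 ± 0.13 in KO (adjusted p = 0.003; 0.11 without KO21) was 77.4% of the 0.75 ± 0.13 in WT, and the difference had a 95% interval of -0.20 to 0.54. Kcna1, a potassium channel, fell by 0.86 ± 0.29 in WT (adjusted p = 0.029; 0.051 with no filter on low values, 0.053 without KO21, 0.14 without WT17 and 0.087 without WT23).

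The 29 genes of the cytoskeleton, adhesion and membrane traffic included 24 that fell in WT at 24 h (median -1.04) and 7 that fell in KO (median -0.28). Tbc1d30, a regulator of RAB proteins, fell by 1.84 ± 0.19 in WT with an effect 1.88 ± 0.27 higher in KO (adjusted p = 2.7e-05). Krt24, a keratin, fell by 1.97 ± 0.24 in WT and differed by 0.01 ± 0.24 in KO. For Cyth4, an exchange factor of ARF proteins, the effects differed by 1.84 ± 0.20, and for Pcdh12, a protocadherin, by 1.83 ± 0.38. Afap1l2, an adaptor that binds SRC, fell by 1.32 ± 0.13 in WT and differed by 0.10 ± 0.13 in KO. Fign, an ATPase that cuts microtubules, fell in both genotypes, by 1.14 ± 0.22 in KO (adjusted p = 0.0006) and by 1.93 ± 0.22 in WT.

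All 4 axonemal and ciliary genes fell in WT at 24 h, with a median of -1.47, and Erich3 and Dnah5 also fell in KO. Erich3, a gene linked to cilium formation, fell by 0.92 ± 0.20 in KO (adjusted p = 0.0021) and by 1.51 ± 0.20 in WT. Dnah5, a heavy chain of outer dynein arms, fell by 0.89 ± 0.24 in KO (adjusted p = 0.015; 0.20 without KO20 and 0.076 without KO21) and by 1.43 ± 0.24 in WT.

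Of 13 metabolic enzymes, 12 fell in WT at 24 h (median -1.11) and 3 in KO (median -0.38). Aldh1a3, which makes RA from retinaldehyde, had 7.40, 6.94 and 6.87 in KO RA cultures and 8.57, 8.08 and 7.89 in KO DMSO cultures at 24 h. In WT it had 6.65, 6.22 and 6.27 with RA and 7.62, 7.52 and 7.34 with DMSO. The groups were apart in both genotypes, by 1.11 ± 0.29 in KO (adjusted p = 0.01) and by 1.11 ± 0.29 in WT (adjusted p = 0.0043; 0.082 without WT23). The difference between the effects on Aldh1a3 was 0.00, with a 95% interval of -0.83 to 0.83. Abhd12b fell by 1.80 ± 0.18 in WT (adjusted p = 3.6e-09) and differed by -0.43 ± 0.18 in KO (adjusted p = 0.15; 0.024 when line was blocked). Hsd11b1, which regenerates active glucocorticoid, fell by 1.54 ± 0.21 in WT with an effect 1.77 ± 0.30 higher in KO (adjusted p = 0.00018).

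All 8 immune and interferon genes fell in WT at 24 h (median -1.003) and 1 in KO (median -0.33), where 86.8% and 24.9% of all 189 genes fell. Cd7, a surface protein of lymphocytes, had 5.99, 5.97 and 5.86 in WT RA cultures and 8.12, 8.02 and 8.08 in WT DMSO cultures. Its fall of 2.14 ± 0.22 in WT came with an effect 1.77 ± 0.31 higher in KO (adjusted p = 0.00032). Macrophage markers moved in the same WT comparison. None is among the 189 genes, 2 of 5 tested fell in WT at 24 h, Ptprc and Mrc1, and none of the 5 is at 0. Their summed linear level lay between 184 and 223 in WT RA libraries and between 386 and 512 in WT DMSO libraries at 24 h, and between 326 and 1616 in KO RA libraries and between 385 and 1900 in KO DMSO libraries. Of 7 endothelial markers, Pecam1 and Tek fell in WT and 2 rose in KO; their summed level lay between 944 and 1041 in WT RA libraries and between 1089 and 1338 in WT DMSO libraries at 24 h. The part of such cells in these results was not tested.

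The 8 ubiquitin ligase adaptors and apoptosis genes included 7 that fell in WT at 24 h (median -0.85) and 3 in KO (median -0.29). Fbxo32 had 9.99, 10.23 and 9.96 in KO RA cultures and 10.60, 11.11 and 10.77 in KO DMSO cultures at 24 h. WT levels were 9.62, 9.71 and 9.84 with RA and 10.71, 11.22 and 11.08 with DMSO. The groups were apart in both genotypes, by 0.76 ± 0.14 in KO (adjusted p = 0.00037) and by 1.28 ± 0.14 in WT (adjusted p = 3.2e-08), and KO kept 59.6% of the fall. The difference between the effects on Fbxo32, 0.52 ± 0.20, did not pass (adjusted p = 0.11), and passed without the 3 libraries that stood apart (0.041) and without KO20 (0.046). The remaining 20 genes had no assigned role. Of these 18 fell in WT and 5 in KO, Tmem178b most in both, by 1.40 ± 0.30 in KO (adjusted p = 0.0016) and by 2.15 ± 0.30 in WT. Fam84a fell by 0.79 ± 0.23 in KO (adjusted p = 0.022; 0.11 without KO12 and 0.13 without KO21) and by 0.72 ± 0.23 in WT (adjusted p = 0.019; 0.27 without WT23 and 0.068 without WT25).

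Other genes of the same pathways are given beside the shares over all genes tested, 12.4% lower and 11.8% higher in WT and 2.47% lower and 6.36% higher in KO at 24 h. Of 44 tested genes of undifferentiated spermatogonia, 7 were members. Among the other 37, 19 were called lower and 2 higher in WT at 24 h, against 3 lower and 5 higher in KO. Ret, the GDNF receptor subunit, fell by 1.26, Etv5, a GDNF target, by 1.16, and Zbtb16, a repressor of differentiation, by 1.17 in WT; at 8 h they had differed by -0.57, -0.19 and -0.44, short of the threshold. The summed linear level of these 44 genes was 168848 to 177058 in KO RA libraries and 167411 to 175502 in KO DMSO libraries at 24 h. In WT it was 113809 to 117489 in RA libraries and 169484 to 177504 in DMSO libraries. At 24 h the WT RA libraries alone lay apart from the rest. At 8 h the WT sums were 161510 to 189765 with RA and 178458.5 to 200010 with DMSO, which overlap. At 4 h they were 207303 to 223176 with RA, above the 180635 to 192209 of untreated WT cultures. In bulk cultures, fewer cells of a type and less RNA per cell cannot be told apart.

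Of 73 tested genes of GDNF, FGF and ERK signalling, 7 were members, and among the other 66, 19 were called lower and 6 higher in WT at 24 h, with 5 lower and 6 higher in KO. The gene lists overlap, with Ret, Etv5 and Egr4 among the shared genes, so the same falls are counted again from list to list. Of the ERK feedback inhibitors, Dusp6 and Spry4 fell most in WT at 24 h, by 1.55 and 1.40. Dusp5, Dusp7, Spry1, Spred1 and Spred3 fell by less. Dusp4, Spry2 and Spred2 did not pass, with -0.66, -0.12 and 0.01. Spry4 also fell in KO, by 0.50, as did Spred3, while Spred2 rose there. Of all eligible genes 1.61% were members, so lists of this size would often hold none or 1. Genes of the cell cycle step from G1 to S (37 eligible), of cell adhesion and matrix (62) and of cholesterol and lipid synthesis (32) held no member. The 27 genes of differentiating spermatogonia held 1 member, Dmrtb1. The other 26 held 2 genes that fell and 12 that rose in WT at 24 h, with 1 lower and 11 higher among KO calls. The 116 tested transcription factors listed held 15 members, and among the other 101, 24 were called lower and 11 higher in WT at 24 h. Of the other lists, Wnt, Notch and hedgehog signalling (37 eligible) held 3 members, ion channels and transporters (50) 3, piRNA genes (31) 3, neuronal genes (45) 2 and TGF-beta and BMP genes (25) 2. FoxO targets (22), cytokine signalling (27) and epigenetic regulators (48) held 1 each. Feeder fibroblast (21 eligible), Sertoli cell (5), Leydig cell (2) and spermatid markers (1) held no member either. With so few eligible genes, lists would mostly hold none, so nothing is read from this. Of the 23 feeder markers, 2 fell in WT and 2 in KO at 24 h, and their summed level lay between 36714 and 57018 in WT RA libraries and between 41739 and 52535 in WT DMSO libraries at 8 h, which overlap.

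RefSeq promoters (GRCm38.p6; 300 bases) were found for 136 of the 189 genes, with which 180 promoters were matched, 5 genes by a synonym. AGGTCA, the core motif of nuclear receptors, was present on either strand in at least 1 promoter of 26 of these 136 genes, against 14.2% of eligible genes and 18.1% of all genes in the table. A direct repeat of AGGTCA with 5 bases between the copies, the classical RA response element, was found in none. It was present in 3 of 32851 promoters in all. GCGNGGGCG, the EGR motif, was in 15 of the 136, against 13.4% of eligible genes. CCGGAAG, a core of ETS factor sites, was found in 5 members (3.68%), against 20.9% of eligible genes and 9.93% of all genes. The GC box GGGCGG was in 57.4% of the members, against 71.8% of eligible genes, and the median GC content was 59.0% in members' promoters and 61.3% in those of eligible genes. CACGTG, the E-box, was in 11.8% of the members and 12.5% of eligible genes, and TGACGTCA, the CRE motif, was in 2.21% and 3.77%. GTAAACA, a forkhead motif, was in 4.41% of the members and 2.95% of eligible genes. CNCCTCAG was in 10.3% of the members and 11.1% of eligible genes. Overlapping matches of different motifs were all kept. Such matches describe letters in a 300-base window and show no binding.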

How the data were processed

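The authors deposited a table of log2 values that were already scaled to one another; the transform is not given in the sources used here; one that shrinks low values would understate the changes of low genes. Per the submitters' processing notes, STAR 2.5.1b and DESeq were used with GRCm38.p4. The authors' deposited mean signal, in scaled counts, served for levels per length only. The labels list 43 samples, 2 of them for WT17 RA at 24 h, which has 1 column, so 42 libraries were used. Depth is unknown.

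Genes at 10 or more scaled counts (the value compared with the log2 of 10) in at least 3 libraries (16297) were fitted with limma 3.58.1 in R 4.3.3, with 1 mean per group over 14 groups, trend and robust, and Benjamini-Hochberg adjustment at 0.05 over all genes tested in each of 12 comparisons. Errors are model SEs with n = 3 lines per group unless called SD. Python 3 with pandas made summaries. On simulated data for WT RA against DMSO at 24 h, over 16297 genes, 77 of 100 steps of 0.6 and 98 of 100 steps of 1.2 were recovered, with 7 false calls. Noise was drawn independently for each library, without the correlation within lines, so these numbers do not show how the fit behaves with it.

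Each named line recurs in every group of its genotype, so lines pair libraries by label: deviations from group means correlated within a line with medians of 0.26 to 0.53 and between lines with medians of -0.32 to -0.15, and RA and DMSO libraries of a line correlated with 0.17 to 0.72 except WT23 at 24 h, with -0.0035. The line is a block in an alternative, not in the fit reported.

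Members, lists and tests were chosen with earlier results of these data known. Named genes are the 15 largest differences at 8 h, the 10 largest falls in WT and 8 in KO at 24 h, the 8 largest positive and 4 largest negative differences between genotypes, up to 5 members of each gene list, up to 6 above 0 at 24 h, and 3 on each side of the threshold; 1 of them is not reported here. The strand setting of the counter is not stated, so 22 members that overlap another tested gene, Nefm, Esr2, Tshz2 and Zfp750 among those named, are uncertain. Alternatives and leaving out each line are described at the end.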

Additional observations from a re-analysis of the deposited data

Results flagged for a closer look

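The RA effect at 24 h differed between the genotypes, by a test of the difference itself, for 95 of the 189 genes with a higher effect in KO and for 0 with a lower one, against 5.88% and 2.56% of all genes tested (limma; at an unadjusted p under 0.05, 124 were higher and 0 lower). The largest differences, KO minus WT on the log2 scale, were 2.06 for Kcne1, 2.01 for Nanos3, 1.98 for Krt24, 1.88 for Tbc1d30, 1.88 for Lpar3, 1.84 for Cyth4, 1.83 for Pcdh12 and 1.79 for Sall3. All 8 passed under each alternative tried, including without each line. Of these 8, Nanos3 and Lpar3 rose in KO. The genes were chosen on WT values at 8 h, which favours genes with a larger effect in WT.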

How the results depend on the processing

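Of 2448 values for 51 named genes under the alternatives, 2295 kept direction and side of the threshold, 87 no longer passed, 66 newly passed and 0 turned direction. The count of genes that fell in WT at 24 h (164) stayed within 157 to 175, and that of a higher effect in KO (95) within 86 to 116; leaving out each line gave 144 to 165 and 68 to 89. The cause of the following moves was not tested. Libraries are paired by line, and in the fit with a replicate block the counts were 59 for lower in KO at 8 h (25 without it), 76 for KO at 24 h (47), 53 for WT at 4 h against DMSO (16), 84 for WT at 4 h against untreated (52), 62 for KO at 4 h against untreated (32), 5 for KO at 4 h against DMSO (1) and 1 for WT DMSO at 24 h against untreated (0); the block changed no other count by more than 1.5 times. KO against WT untreated was not run with it, since lines lie within genotypes. Without the 3 libraries in doubt, the counts were 57 for KO at 8 h, 52 for KO at 4 h against untreated and 11 against DMSO; WT DMSO at 4 h then holds 1 library, assumed to vary like the others. With no filter on low values KO at 8 h gave 15. With the spread from the compared groups only, the counts were 38 for KO at 8 h, 0 for WT at 4 h and 0 for KO at 4 h against DMSO, and 81 for WT and 49 for KO at 4 h against untreated. Leaving out each line gave 5 to 22 for KO at 8 h, 15 to 46 for KO at 24 h, 3 to 22 for WT at 4 h against DMSO and 29 to 58 against untreated, 13 to 35 for KO at 4 h against untreated and 0 to 4 against DMSO, 0 throughout for the KO change between 8 h and 24 h, for KO against WT untreated and for WT DMSO at 24 h, and 27.7% to 31.8% for the median share kept (29.7%). A threshold of -0.5 would take 303 genes and one of -0.8 would take 65; a level floor of 5 gave 228 and of 7 gave 144. Since depth is not kept in these values, counting error could not be separated from the spread between lines.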
